A study of Mus musculus with 6 samples.

Results

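The 57 genes described here encode proteins that hepatocytes secrete into plasma. They were taken by symbol from a fixed list of carriers, apolipoproteins, coagulation factors, protease inhibitors, complement components and acute phase proteins, out of 39179 genes in a table of RNA-seq read counts. The list was drawn up with the pattern of these genes in the same data known, so their differences between tumors and between genotypes are given as a description. RNA was sequenced from 6 primary osteosarcomas, malignant bone tumors, of mice of a mixed background (C57BL/6 x 129/Sv x FVB). All 6 mice carried Nf2Δ2/+, a heterozygous mutation of the tumor suppressor gene neurofibromatosis type 2, so the mutation was shared by both groups. Cd44+/+ were No244, No316 and No368, and Cd44-/-, that is, without CD44, a receptor for hyaluronic acid, were No203, No279 and No364. Wherever 3 values are given for a genotype they follow this order. The labels gave no age. The tissue was labelled osteosarcoma, although the extraction text of the labels speaks of cell lines. The genotypes were compared for genes that depend on CD44, in a study of resistance to doxorubicin.

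The liver makes most of the protein of plasma. Albumin and the carriers hold water in the vessels and transport metals, heme, retinol and thyroid hormone. Apolipoproteins solubilize lipids, the coagulation cascade ends in the cleavage of fibrinogen by thrombin, and the complement cascade runs from the cleavage of C3 to a pore made of C5b to C9. Serpins and the inter-alpha-trypsin inhibitors restrain the proteases of these cascades. In hepatocytes these genes are read under factors such as HNF1, HNF4, FOXA and C/EBP, and the acute phase genes are in addition induced by interleukin-6 and interleukin-1. Some of the group, such as C3, C4b, Cp and Cfb, are also known from fibroblasts, macrophages and other cells outside the liver.

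Libraries held between 18076388 and 26954142 counted reads. The mitochondrial share was 55.2% in No244 and between 5.94% and 12.5% in the other 5 tumors. The libraries of No316 and No368 agreed within counting noise for 87.2% of 16671 genes, whereas any other pair did so for 15.7% to 24.1%, so these 2 libraries were averaged and counted as 1 sample in every mean. Cd44, the deleted gene, was present at 136, 242 and 238 counts per 1000000 reads (CPM, scaled by TMM, the trimmed mean of M values) in the Cd44+/+ tumors, and at 19.1, 15.6 and 61.2 CPM in the Cd44-/- tumors. The osteoblast markers were low in No364 and, apart from Col1a1, Runx2 and Phex, also in No279. The 9 markers (Runx2, Sp7, Bglap, Bglap2, Alpl, Col1a1, Ibsp, Dmp1 and Phex) summed to 802 CPM there and to between 11996 and 35916 CPM in the other tumors, and none of the 9 was highest in No364. Col1a1, a collagen gene, had 758 CPM in No364 and 11888 CPM in No279. The other 8 markers summed to 43.5 CPM in No364, 107.9 CPM in No279 and between 6410 and 8464 CPM in the remaining 4 tumors. In No203 this sum was mostly Ibsp, with 4779 CPM. Bglap had 267 CPM in No203, against 1818 to 3451 CPM in the Cd44+/+ tumors, and Bglap2 had 252 CPM, against 1767 to 3337 CPM. Of the 9 markers, 5 were lowest in No364. Sp7, the osteoblast transcription factor osterix, had 6 counts in No364 and 120 in No279, against 2287 to 8402 in the remaining 4 tumors. Each result on the genotypes is given with and without No364. In bulk tissue, fewer cells of a type and less RNA per cell cannot be told apart.

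Every one of the 57 plasma protein genes had its highest level in the Cd44-/- tumor No364. Of the 16839 genes tested, 25% were highest in that tumor. The group took 16.1% of all reads of No364 (4349063 of 26954142, 95% Wilson interval 16.12 to 16.15%, counting error only), against 0.0251% in No244, 0.0361% in No316, 0.0348% in No368, 0.0658% in No203 and 0.0622% in No279. The other 5 tumors thus lay close to each other and far from No364. The share of No279 rested on C3, without which it was 0.0312%, against 0.0240% in No244, 0.0307% in No316, 0.0293% in No368 and 0.0635% in No203. Albumin was the most counted gene of No364 with 4.27% of its reads, ahead of the mitochondrial gene mt-Co1. Transferrin ranked 3 and Apoa1 ranked 8. Among the 50 genes with the most counts in No364, 20 belonged to the group, and among the top 200 there were 36. The summed share in No364 was 8.94% for the carriers, 2.74% for the apolipoproteins, 2.21% for the coagulation genes, 1.37% for the inhibitors, 0.850% for the complement genes and 0.0201% for the acute phase genes.

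**Figure D1:**
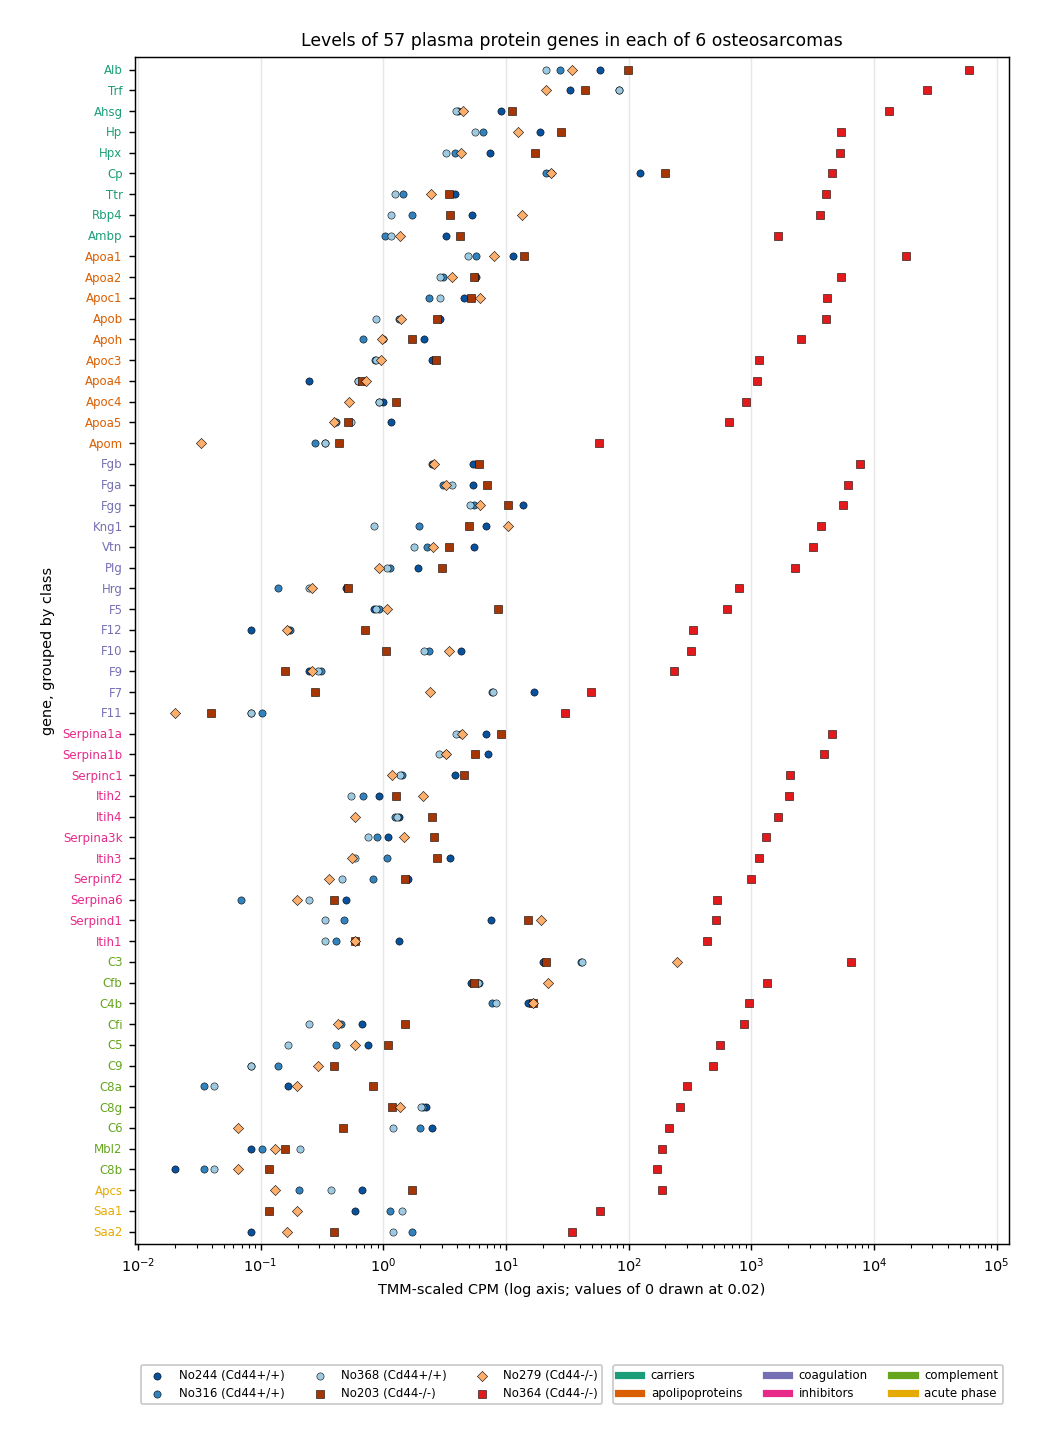
Each row is 1 gene and each point 1 tumor, on a log axis of TMM-scaled CPM, and genes are grouped by class and ordered by their level in No364. The No364 point is the farthest right in all 57 rows, from 30.2 CPM for F11 to 59766 CPM for Alb, whereas the points of the other 5 tumors overlap between genotypes in most rows.

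Promoter sequences were looked at because the genes were high together in 1 tumor. RefSeq (GRCm38.p6) had a promoter entry for 45 of the 57 genes, and none for Apoc1, Apoc3, C4b, Cfb, Cfi, Hp, Kng1, Plg, Serpina3k, Serpina6, Trf and Ttr. In the 250 bases before the transcript start, GTTAAT, the core letters of the HNF1 site, was found on either strand in 11 of the 45 genes (24.4%), and in 7.49% of all 27025 genes with an entry. TTGCNNAA, an open form of the C/EBP site, was found in 18 of the 45 (40.0%) and in 10.8% of all genes, and TGTTTGC, a FOXA site, in 9 (20%) and in 4.93%. The HNF4 letters CAAAGTCC were found in none of the 45 and in 1.38% of all genes. CTGGGA, the core of the interleukin-6 response element of acute phase genes, was found in 13 of the 45 (28.9%) and in 29.9% of all, so at about the common rate. The TATA box letters TATAAA, searched on the gene strand, were found in 7 of the 45 (15.6%) and in 8.94% of all. In all, 18 letter patterns were searched, several of them overlapping in their letters with another. Genes that lie next to each other or are copies of each other, such as Serpina1a and Serpina1b, share sequence, and a match is a stretch of letters, not a site shown to be bound.

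The sequences of 6 genes are printed for the most abundant gene (Alb), the 3 chains of fibrinogen (Fga, Fgb and Fgg), and the genes of coagulation and complement with the highest levels outside No364 relative to it (F7 and C3). Each is the 150 bases before the first start annotated by RefSeq or GENCODE M21, read 5′ to 3′ in the direction of the gene on GRCm38, with GTTAAT or its reverse complement ATTAAC and TTGCNNAA or its reverse complement TTNNGCAA in capitals. Alb was read from chr5:90460720-90460869 on the plus strand, Fga from chr3:83025926-83026075 on the plus strand, Fgb from chr3:83049864-83050013 on the minus strand, Fgg from chr3:83007574-83007723 on the plus strand, C3 from chr17:57228137-57228286 on the minus strand and F7 from chr8:13025884-13026033 on the plus strand.
Alb: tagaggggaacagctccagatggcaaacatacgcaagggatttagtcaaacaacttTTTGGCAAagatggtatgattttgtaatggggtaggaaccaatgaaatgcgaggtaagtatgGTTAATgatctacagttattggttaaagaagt
Fga: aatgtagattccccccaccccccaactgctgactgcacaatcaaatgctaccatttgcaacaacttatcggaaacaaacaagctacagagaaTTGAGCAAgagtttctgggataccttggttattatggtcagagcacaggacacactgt
Fgb: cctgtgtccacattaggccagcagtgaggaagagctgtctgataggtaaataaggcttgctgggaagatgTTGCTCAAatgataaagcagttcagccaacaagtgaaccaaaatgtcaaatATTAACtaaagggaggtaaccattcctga
Fgg: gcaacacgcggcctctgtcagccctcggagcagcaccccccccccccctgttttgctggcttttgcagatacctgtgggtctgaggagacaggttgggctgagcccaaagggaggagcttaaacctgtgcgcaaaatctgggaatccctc
C3: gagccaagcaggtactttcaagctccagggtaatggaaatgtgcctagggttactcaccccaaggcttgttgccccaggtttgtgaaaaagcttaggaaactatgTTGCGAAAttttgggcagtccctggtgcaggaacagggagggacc
F7: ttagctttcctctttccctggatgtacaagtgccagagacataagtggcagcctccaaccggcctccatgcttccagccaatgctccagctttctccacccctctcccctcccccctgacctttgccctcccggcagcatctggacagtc
Alb and Fgb held 1 match to each pattern, Fga and C3 held 1 match to TTGCNNAA, and Fgg and F7 held none in these bases. The Alb match to GTTAAT began 32 bases before the start, and that of Fgb 29 bases before it. For Fga the GENCODE start lies 77 bases before that of RefSeq, and a GTTAAT match nearer to the RefSeq start lies outside the bases shown.

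Among the carriers, Alb (ENSMUSG00000029368, chr5:90460897-90476602 on GRCm38), which encodes albumin, had 58.7, 27.5 and 21.1 CPM in the Cd44+/+ tumors. In the Cd44-/- tumors it had 98.5, 34.9 and 59766 CPM. No203 was the second highest, and without No364 the genotypes overlapped. Means were 41.5 ± 24.3 CPM (SD, n = 2) in Cd44+/+ and 66.7 ± 45.0 CPM (SD, n = 2) in the 2 Cd44-/- tumors other than No364. Trf, which encodes the iron carrier transferrin, had 33.1, 83.0 and 83.0 CPM in the Cd44+/+ tumors and 43.9, 21.4 and 27282 CPM in the Cd44-/- tumors, so that outside No364 it was highest in the pair No316 and No368. Ahsg, which encodes fetuin-A, a plasma inhibitor of mineralization, had 9.16, 4.10 and 3.91 CPM in the Cd44+/+ tumors. It had 11.2, 4.48 and 13341 CPM in the Cd44-/- tumors. Apart from No364, its values thus ran from 3.91 to 11.2 CPM, and the genotypes overlapped.

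Cp, which encodes the copper carrier and ferroxidase ceruloplasmin, was the carrier with the highest level outside No364 relative to it. Its CPM were 124, 21.4 and 23.1 in the Cd44+/+ tumors and 199, 23.2 and 4592 in the Cd44-/- tumors. The value of No203 was 4.32% of that of No364, and Cp overlaps a gene on the opposite strand. Hp, which encodes the hemoglobin scavenger haptoglobin, came next, with 19.0, 6.55 and 5.62 CPM in the Cd44+/+ tumors and 28.2, 12.5 and 5372 CPM in the Cd44-/- tumors. By TMM-scaled CPM, No203 and No244 were the 2 tumors with the higher values after No364 for both genes. For Hp the place of No244 rests on the scaling, with 228 counts there and 381 in No279. The other 4 carriers with values not given so far, Ttr (transthyretin), Hpx (hemopexin, the heme carrier), Ambp (alpha-1-microglobulin and bikunin) and Rbp4 (the retinol carrier), ranged from 1.03 to 17.3 CPM outside No364 and from 1663 to 5316 CPM in it. Rbp4 differed from the rest in that No279, with 13.6 CPM, was its second highest tumor.

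Of the apolipoproteins, Apoa1 (ENSMUSG00000032083, chr9:46228580-46230466), the main protein of high-density lipoprotein (HDL), had 11.4, 5.69 and 4.91 CPM in the Cd44+/+ tumors. In No203, No279 and No364 it had 13.96, 8.05 and 18302 CPM. Apoa2, the other main protein of HDL, had 5.66, 3.07 and 2.91 CPM in the Cd44+/+ tumors and 5.46, 3.67 and 5418 CPM in the Cd44-/- tumors. By TMM-scaled CPM, in both genes No244 and No203 lay above the remaining 3 tumors outside No364. The place of No244 rests on the scaling. Apoa2 had 68 counts there and 70 to 112 in No316, No368 and No279. Per kilobase of exon, which allows levels of different genes to be set side by side, Apoa1 had 14807 and Apoa2 10089.7 CPM in No364. Apoc1, a small exchangeable apolipoprotein, had 4.58, 2.38 and 2.91 CPM in the Cd44+/+ tumors and 5.19, 6.15 and 4149.8 CPM in the Cd44-/- tumors. Both Cd44-/- tumors other than No364 were thus above all 3 Cd44+/+ tumors.

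Apoc3, an inhibitor of lipoprotein lipase, had 2.50, 0.861 and 0.874 CPM in the Cd44+/+ tumors and 2.71, 0.949 and 1162 CPM in the Cd44-/- tumors. Apom, the HDL carrier of sphingosine-1-phosphate, had too few reads for the genotype fit, with 4, 8 and 8 counts in the Cd44+/+ tumors and 11, 1 and 1114 in the Cd44-/- tumors. It was the least abundant apolipoprotein of No364, at 57.8 CPM. Apoa4, Apoa5, Apob, Apoc4 and Apoh (a protein that binds phospholipids) ranged from 0.250 to 2.92 CPM outside No364 and from 663 to 4049 CPM in it. Apob, the structural protein of low-density lipoprotein, was at 0.0720% or less of its No364 level in each other tumor.

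The 3 genes of fibrinogen, Fga, Fgb and Fgg, lie within 42.1 kb on chromosome 3 and encode the chains that are assembled in equal numbers. Fga had 5.41, 3.07 and 3.66 CPM in the Cd44+/+ tumors and 7.04, 3.24 and 6141 CPM in the Cd44-/- tumors. Fgb had 5.41, 2.52 and 2.54 CPM in the Cd44+/+ tumors and 6.01, 2.59 and 7647 CPM in the Cd44-/- tumors. Fgg had 13.8, 5.44 and 5.12 CPM in the Cd44+/+ tumors and 10.4, 6.19 and 5554 CPM in the Cd44-/- tumors. By TMM-scaled CPM, all 3 chains had the same 2 tumors, No203 and No244, after No364. For Fga and Fgb the place of No244 rests on the scaling. Fga had 65 counts there and 88 to 99 in No316, No368 and No279. Per kilobase of exon, the chains stood at 2040.4, 2007 and 2653 CPM in No364, a spread of 1.32-fold between the highest and the lowest. Fgg overlaps a gene on the opposite strand.

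F7 (ENSMUSG00000031443, chr8:13026034-13035809) starts the extrinsic pathway together with tissue factor. It was the gene of the group with the smallest distance between No364 and the rest. Its CPM were 17.0, 7.68 and 7.91 in the Cd44+/+ tumors and 0.275, 2.42 and 49.2 in the Cd44-/- tumors. The highest of the other tumors, No244, reached 34.5% of the No364 level, and the Cd44+/+ tumors lay above No203 and No279 without overlap. Its neighbour F10, the factor that cleaves prothrombin, had 4.33 CPM in No244 and 1.06 to 3.40 CPM in the other 4 tumors, against 326 CPM in No364. F5, the cofactor of activated factor X, had 0.833, 0.930 and 0.874 CPM in the Cd44+/+ tumors and 8.61, 1.08 and 632 CPM in the Cd44-/- tumors. F5 was raised outside No364 in a single tumor, No203.

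The 4 coagulation genes with too few reads for the genotype fit were F9 and F11, proteases of the intrinsic pathway, F12, which starts contact activation, and Hrg, a plasma protein that binds heparin. F9 had 3, 9 and 7 counts in the Cd44+/+ tumors and 4, 8 and 4502 in the Cd44-/- tumors. F11 had 1, 3, 2, 1 and 0 counts in No244, No316, No368, No203 and No279 and 583 in No364. These 2 genes were close to the limit of detection outside No364, where a count of 0 allows up to 3 counts. F12 had 1, 5, 4, 18 and 5 counts in the same 5 tumors and 6500 in No364, and Hrg had 6, 4, 6, 13 and 8 counts and 15429 in No364. Hrg had the lowest level outside No364 relative to it of all 57 genes, at 0.0638% in No203. Plg (plasminogen, the zymogen of the fibrin-cleaving protease), Kng1 (kininogen) and Vtn (vitronectin, an adhesion protein) ranged from 0.832 to 10.3 CPM outside No364 and from 2259.7 to 3696 CPM in it.

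**Figure D2:**
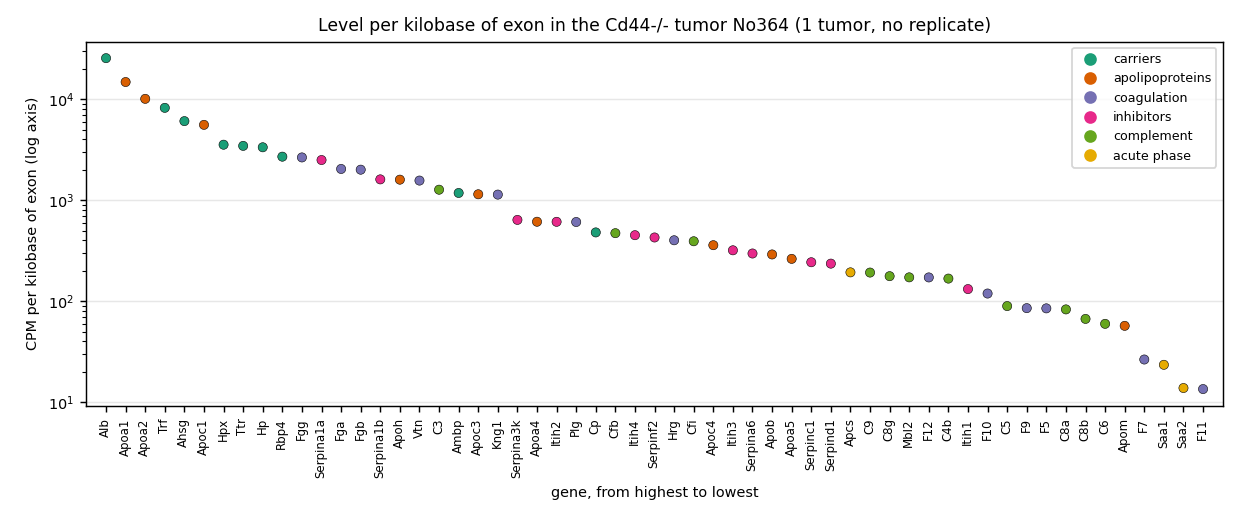
Points give the level of each gene in the single tumor No364, in CPM per kilobase of exon on a log axis, from the highest to the lowest gene, colored by class. Levels run from 25519 for Alb to 13.5 for F11, carriers and apolipoproteins fill the first 10 places, and the 3 fibrinogen chains lie close together at 2007 to 2653.

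Of the protease inhibitors, Serpina1a and Serpina1b, copies of the gene for alpha-1-antitrypsin, the inhibitor of neutrophil elastase, had the highest levels per kilobase. Serpina1a had 6.91, 4.31 and 3.91 CPM in the Cd44+/+ tumors and 9.20, 4.42 and 4583 CPM in the Cd44-/- tumors. Serpina1b had 7.08, 3.27 and 2.83 CPM in the Cd44+/+ tumors and 5.58, 3.27 and 3886 CPM in the Cd44-/- tumors in the same order. Serpina3k, a further serpin gene on chromosome 12, had 1.08, 0.896 and 0.749 CPM in the Cd44+/+ tumors and 2.59, 1.47 and 1314 CPM in the Cd44-/- tumors. Reads of such near-identical copies can be divided between them by the counting, so the split between Serpina1a, Serpina1b and the copies Serpina1c, Serpina1d and Serpina1e is uncertain. The same holds for Serpina3k, Saa1, Saa2, C4b and Kng1.

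Serpind1, which encodes heparin cofactor II, a thrombin inhibitor, had 7.50, 0.482 and 0.333 CPM in the Cd44+/+ tumors and 15.1, 19.4 and 516 CPM in the Cd44-/- tumors. All Cd44-/- tumors were above all Cd44+/+ tumors, and No279 reached 3.76% of the No364 level. Serpind1 overlaps 2 genes on the opposite strand, and whether the counting used strand is not given in the sources used here. Serpina6, the cortisol carrier, had 6, 2, 6, 10 and 6 counts in No244, No316, No368, No203 and No279 and 10078 in No364, and had too few reads for the fit. Serpinc1 (antithrombin) and Serpinf2 (the plasmin inhibitor alpha-2-antiplasmin) ranged from 0.360 to 4.52 CPM outside No364 and stood at 2079 and 994 CPM in it.

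The Itih genes encode heavy chains of the inter-alpha-trypsin inhibitor family. Some of these chains, such as those of Itih1 and Itih2, bind hyaluronic acid, the ligand of CD44. Itih1 had 1.33, 0.414 and 0.333 CPM in the Cd44+/+ tumors and 0.590, 0.589 and 434 CPM in the Cd44-/- tumors. Itih2 had 0.916, 0.689 and 0.541 CPM in the Cd44+/+ tumors and 1.26, 2.13 and 2027 CPM in the Cd44-/- tumors. Of these 2 heavy chains of the same plasma protein, Itih2 was higher in No203 and No279 than in any Cd44+/+ tumor. Itih1 was, outside No364, highest in No244. Both orders rest on few reads. In No244, No316, No368, No203 and No279, Itih1 had 16, 12, 8, 15 and 18 counts and Itih2 had 11, 20, 13, 32 and 65. Itih3 had 3.499, 1.07 and 0.583 CPM in the Cd44+/+ tumors and 2.75, 0.556 and 1162 CPM in the Cd44-/- tumors. Itih4 had 1.33, 1.24 and 1.29 CPM in the Cd44+/+ tumors and 2.48, 0.589 and 1664 CPM in the Cd44-/- tumors. Per kilobase of exon in No364, Itih2 stood highest with 611 CPM, followed by Itih4 with 451, Itih3 with 319 and Itih1 with 132, a spread of 4.63-fold.

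In the complement class, C3 (ENSMUSG00000024164, chr17:57203970-57228136), the component on which all activation pathways converge, had 19.9, 40.8 and 41.9 CPM in the Cd44+/+ tumors. It had 21.1, 249 and 6538 CPM in the Cd44-/- tumors. No279 was thus well above the other 4 tumors and reached 3.81% of the No364 level, while No203 lay among the Cd44+/+ tumors. Cfb, the protease of the alternative pathway, had 5.16, 6.00 and 5.87 CPM in the Cd44+/+ tumors and 5.54, 21.8 and 1334 CPM in the Cd44-/- tumors, so it shared the high value of No279 with C3. C4b, a component of the classical pathway, had 15.2, 7.65 and 8.24 CPM in the Cd44+/+ tumors and 16.7, 16.5 and 954 CPM in the Cd44-/- tumors. Cfi, the protease that inactivates C3b and C4b, had 0.666, 0.448 and 0.250 CPM in the Cd44+/+ tumors and 1.49, 0.426 and 871 CPM in the Cd44-/- tumors.

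C6, of the membrane pore, had 2.50, 2.00 and 1.21 CPM in the Cd44+/+ tumors and 0.472, 0.0655 and 212 CPM in the Cd44-/- tumors, the value of No279 resting on 2 reads. C5, the precursor of the anaphylatoxin C5a, which the annotation lists as Hc, ranged from 0.166 to 1.10 CPM outside No364 and had 561 CPM in it. C8 is built from 3 chains. C8a had 2, 1, 1, 21 and 6 counts in No244, No316, No368, No203 and No279 and 5817 in No364, and C8b had 0, 1, 1, 3 and 2 counts and 3278 in No364. C8g, in contrast, had 2.25, 2.10 and 2.04 CPM in the Cd44+/+ tumors and 1.18, 1.37 and 264 CPM in the Cd44-/- tumors, and overlaps a gene on the opposite strand. Per kilobase of exon in No364 the chains stood at 83.0 CPM for C8a, 66.8 for C8b and 177 for C8g, a spread of 2.65-fold. C9, which completes the pore, had 1, 4, 2, 10 and 9 counts outside No364 and 9472 in it, and Mbl2, a lectin that starts the lectin pathway, had 1, 3, 5, 4 and 4 counts and 3618 in No364.

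Of the 3 acute phase genes, Saa1 and Saa2 were low even in No364. Saa1, which encodes serum amyloid A1, had 0.583, 1.14 and 1.42 CPM in the Cd44+/+ tumors and 0.118, 0.196 and 58.2 CPM in the Cd44-/- tumors. Its neighbour and near copy Saa2 had 0.0833, 1.72 and 1.21 CPM in the Cd44+/+ tumors and 0.393, 0.164 and 34.8 CPM in the Cd44-/- tumors. For both genes No316 and No368 came next to No364, as they did for the carrier Trf, whereas No203 was second in 6 of 9 carriers. Apcs, which encodes serum amyloid P, had 0.666, 0.207 and 0.375 CPM in the Cd44+/+ tumors and 1.73, 0.131 and 188 CPM in the Cd44-/- tumors.

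Levels outside No364 were low but rarely 0. Of the 57 genes, 47 had at least 3 counts in every tumor, and a count of 0 occurred for F11 in No279 and for C8b in No244. For each gene the highest of the other 5 tumors was taken as a percent of its No364 level. The median over the 57 genes was 0.201%, the range 0.0638% for Hrg to 34.5% for F7, and the median over all genes tested was 174%. A value under 2% was found for 51 of the 57, and for 0.98% of all genes tested. Tumor by tumor, the median over the 57 genes was 0.140% of the No364 level in No244, 0.0726% in No316, 0.0661% in No368, 0.161% in No203 and 0.0698% in No279. Between 29 and 36 of the 57 genes were within 2-fold of the median of their tumor. The log2 levels of the 57 genes in No364 and in another tumor had a Pearson r of 0.711 for No244, 0.633 for No316, 0.619 for No368, 0.827 for No203 and 0.746 for No279, given as a description over genes that share their libraries.

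By a rule set after these values were seen, genes more than 5 times above the median percent of a tumor were listed. There were 15 such genes, and the remaining 42 passed in no tumor. Cp and C4b passed in all 5 tumors. F7, F10, C8g and Saa2 passed in 4, and Serpind1, C3, C6, Cfb and Saa1 in 3. Apom passed in 2 tumors on few reads, Rbp4 only in No279, and F5 and Apcs only in No203. By class these were 5 of the 11 complement genes, all 3 acute phase genes, 3 of the 13 coagulation genes, 2 of the 9 carriers, 1 of the 11 inhibitors and 1 of the 10 apolipoproteins. The 15 hepatocyte markers that are not plasma proteins, such as Hnf4a, Cps1 and Cyp2e1, had a median highest value outside No364 of 0.0970%, and all 15 were highest in No364. They summed to between 12.8 and 19.7 CPM in the other 5 tumors and to 22457 CPM in No364, and their part in the low levels of the plasma protein genes was not tested.

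**Figure D3:**
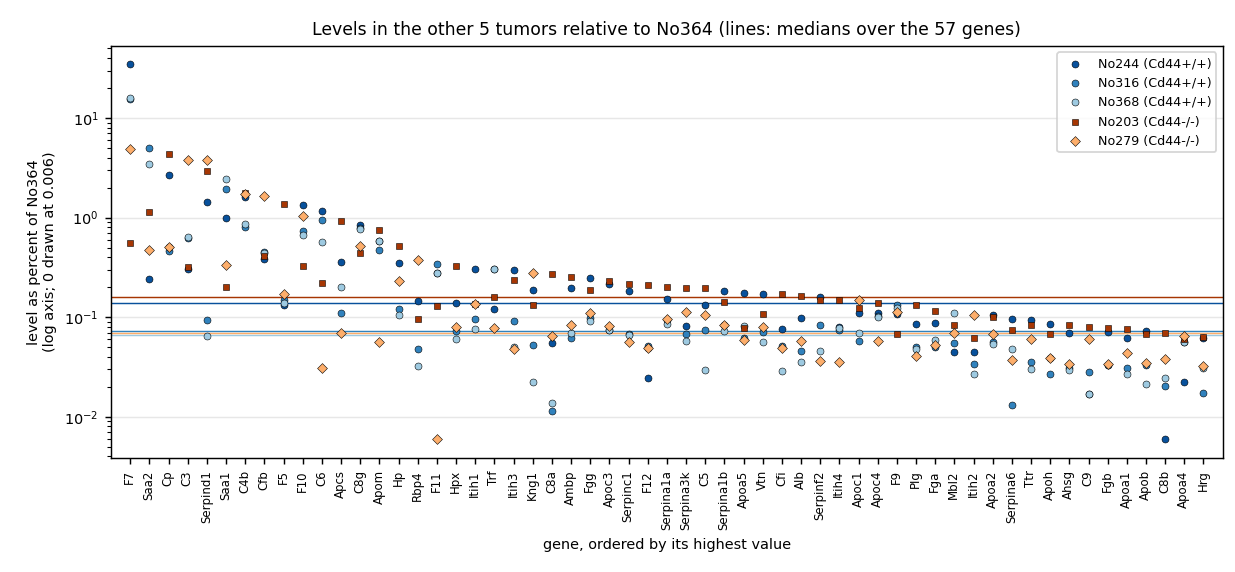
Each column is 1 gene and each point 1 of the 5 tumors other than No364, given as a percent of the gene's No364 level on a log axis, with lines at the median of each tumor over the 57 genes. Most points lie near the lines, between 0.0661% and 0.161%, whereas F7, Saa2, Cp, C3 and Serpind1 at the left rise to between 3.76% and 34.5%.

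Which of the other tumors came second depended on the scaling. With TMM-scaled CPM, No203 was second for 27 genes, No244 for 16, No279 for 8, and No316 and No368 for 3 each. With library size alone the counts were 36 for No203, 1 for No244, 10 for No279 and 5 each for No316 and No368. The place of No244, whose TMM factor was 0.569 and whose mitochondrial share was the highest, thus rested on the scaling, while No203 led in both. Over all genes tested, with TMM, No203 was highest of the 5 for 19.9%, No244 for 29.3%, No279 for 29.6%, No316 for 11.1% and No368 for 10.1%.

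The genotypes were compared with edgeR over all genes that passed a filter on low counts. Of the 57 genes, 47 passed it. With all 6 tumors, 0 of the 47 and 0% of 16839 genes were called at a Benjamini-Hochberg adjusted p under 0.05, with adjusted p from 0.452 to 0.882 for the 47. At an unadjusted p under 0.05 there were 43 of the 47 and 10.7% of all genes, which describes the values that chose the genes. With the near-identical libraries No316 and No368 summed as 1 sample, this count was 3 of 53 genes of the group and 4.27% of 17844 genes. With limma-voom it was 1 of 47 genes of the group and 9.145% of 16839 genes. The median log2 fold change, Cd44-/- minus Cd44+/+, was 8.32 over the 47, from 0.67 for F7 to 9.89 for Itih2, and 0.11 over all genes. For Alb it was 9.12 ± 3.33 (SE), and 1 of the 3 Cd44-/- tumors, No364, carried the difference. DESeq2 called 2.33% of 17952 genes, and of the 57 only C3 (log2 fold change 6.03 ± 1.49 (SE), adjusted p 0.00706). It gave no adjusted p for 55 of the 57. limma-voom called none.

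Without No364, 0 of the 47 genes and 0% of 17518 genes were called by edgeR, with adjusted p from 0.546 to 0.994. The median log2 fold change was 0.44 over the 47 and 0.04 over all genes, and 34 of the 47 were above 0, against 52.1% of all genes. When No203 was also left out, the median was -0.36 and 16 of the 47 were above 0, so the direction rested on that tumor. At an unadjusted p under 0.05 there were 4 of the 47, against 8.81% of all genes. With No316 and No368 summed as 1 sample there was 1 of 45, against 3.69% of all genes. The 1 gene on the higher side in Cd44-/- was F5, with a log2 fold change of 2.46 ± 0.93 (SE), where 4.61% of all genes were on that side. The 3 on the lower side were F7, C6 and Saa1, with -2.99 ± 1.06, -2.81 ± 1.05 and -2.69 ± 0.83 (SE), where 4.2% of all genes were. DESeq2 gave an adjusted p for 50 of the 57 genes and called 0 of them, and it called 2.36% of 18294 genes. limma-voom called 0 of the 47.

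**Figure D4:**
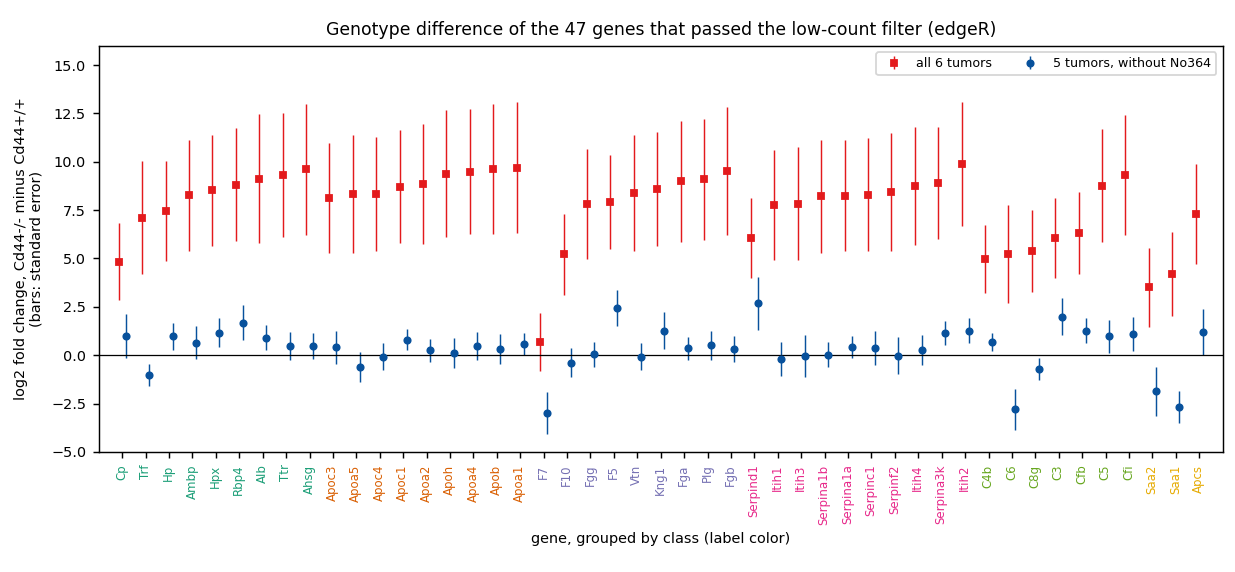
Points give the log2 fold change, Cd44-/- minus Cd44+/+, of the 47 genes that passed the filter, with bars for the standard error, for all 6 tumors (squares) and without No364 (circles), and label colors give the class. With all 6 tumors most squares lie between 4.84 and 9.89 with wide bars, F7, Saa2 and Saa1 being lower, and without No364 the circles lie around 0, from -2.99 for F7 to 2.68 for Serpind1.

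Counted tumor by tumor, the Cd44-/- tumors were all above the Cd44+/+ tumors for 10 of the 57 genes, namely Apoa4, Apoc1, F5, Serpind1, Serpina3k, Itih2, C4b, C8a, C8b and C9, against 9.49% of all genes tested. Since No364 was highest for every gene of the group, this count depends on No203 and No279 alone, and without No364, where 14.8% of all genes did so, it is the same by construction. No203 and No279 were below all 3 Cd44+/+ tumors for F7, F11, C6, C8g and Saa1, 5 of the 57, against 13.8% of all genes. The values of Apoa4, F11, C8a, C8b and C9 rest on few reads outside No364.

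Further genes of the same pathways, from lists of genes that are not among the 57, were counted by whether No364 was their highest tumor. Of all 16839 genes tested, 25% were highest in No364, and the count takes no account of how far. Of the companion carriers, 11 of 12 were highest in No364, Tfrc (the transferrin receptor) being the exception. Selenop, the plasma selenium carrier, had the highest level of that list outside No364, with 240, 581 and 589 CPM in the Cd44+/+ tumors and 210.1, 199.8 and 5951 CPM in the Cd44-/- tumors. Of the lipoprotein genes 10 of 14 were highest in No364, and Apoe, which macrophages also make, had 215, 1140.5 and 1139 CPM in the Cd44+/+ tumors and 171, 703 and 14089 CPM in the Cd44-/- tumors. Of the inhibitors 12 of 15 were highest there, with Serpine2 and Anxa2 among the exceptions. These 12 include Serpinf1, with 610.5 CPM in No364 and 608.4 CPM in No368, and Serpina5, with 5 counts in No364. Serpine2, protease nexin 1, had 428, 88.5 and 86.2 CPM in the Cd44+/+ tumors and 2640.3, 18.0 and 24.9 CPM in the Cd44-/- tumors, so its high tumor was No203.

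In the lists of receptors, regulators and cell-bound factors a smaller part of the genes was highest in No364, where 25% of all genes tested were. Some were so by little, such as Il6ra with 14.2 CPM, against 13.6 CPM in No279. Of the companion coagulation genes 7 of 17 were highest in No364, among them F2 (prothrombin), with 0.517 to 0.944 CPM in the other tumors and 1389 CPM in No364. The 10 others included tissue factor (F3), Vwf, Thbd and the plasminogen activators Plat and Plau. Gas6, a vitamin K-dependent ligand of receptor kinases, had 268, 240.4 and 243.6 CPM in the Cd44+/+ tumors and 236, 200.1 and 176 CPM in the Cd44-/- tumors. Of the complement genes 9 of 23 were highest in No364, and C1qa, C1qb and C1qc, which macrophages make, were not. Of the acute phase genes 9 of 14 were highest in No364, and Il6st, the signaling chain of the interleukin-6 receptor, had 64.3, 75.7 and 72.3 CPM in the Cd44+/+ tumors and 54.4, 117 and 96.2 CPM in the Cd44-/- tumors. The edgeR test called none of these companion genes, and 0% of all genes, with or without No364. Of these companion genes, DESeq2 called Afp (alpha-fetoprotein) with 6 tumors (adjusted p 0.000643) and without No364 (adjusted p 0.0121). It also called Apod without No364 (adjusted p 0.0371). Afp had 0, 0 and 0.0416 CPM in the Cd44+/+ tumors and 0.157, 5.99 and 29.9 CPM in the Cd44-/- tumors, and Apod was highest in No279, with 135.6 CPM.

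Markers of other cells were summed beside these values, and 25% of all genes tested were highest in No364. All 6 Kupffer cell markers were highest in No364, at 134 CPM in sum against 1.08 to 7.55 in the Cd44+/+ tumors and 4.29 and 14.6 in No279 and No203. Of the liver endothelial markers 4 of 5 were highest there, at 75.8 CPM against 3.83 to 14.8 in Cd44+/+ and 16.8 and 35.8 in No279 and No203. Of the cholangiocyte markers it was 5 of 6, at 58.2 CPM against 3.58 to 9.07 in Cd44+/+ and 6.96 and 21.5 in No203 and No279. Of the intestinal epithelium markers it was 2 of 6, at 121 CPM against 10.03 to 52.7 in Cd44+/+ and 1.93 and 7.74 in No279 and No203, with Sis, Alpi and Cdx2 at 0 counts in No364. Single genes made up most of some sums. Folr2, a Kupffer cell marker, had 7.17 CPM in No316 and 8.15 CPM in No364. Sox9, the cholangiocyte marker not highest in No364, had 17.6 CPM in No279 and 15.5 CPM in No364. Of the intestinal markers, Fabp2 had 85.1 CPM in No364 and Lgals4 had 51.5 CPM in No244. The part of these cell types in the levels of the plasma protein genes was not tested. DESeq2 with 6 tumors called 4 of the 6 Kupffer cell, 1 of the 5 liver endothelial and 1 of the 6 cholangiocyte markers. It also called 2 of the 9 osteoblast markers, Bglap and Bglap2, both lower in Cd44-/-, where 2.33% of all genes were called. Without No364 it called Bglap (adjusted p 0.0341) and Bglap2 (adjusted p 0.0285) of these lists, and 2.36% of all genes. edgeR called none of the markers.

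Several of the 57 genes are neighbours. Within 100 kb of another gene of the group lay 24 of them, in 9 clusters, among them Apoa1, Apoc3, Apoa4 and Apoa5 on chromosome 9, Itih4, Itih3 and Itih1 on chromosome 14, Ahsg, Hrg and Kng1 on chromosome 16 and F7 with F10 on chromosome 8. The group lay on 18 chromosomes in all. In the cluster on chromosome 9 all 4 genes were highest in No364, at 18302, 1162, 1112 and 663 CPM. The second highest tumor was No203 for Apoa1 and Apoc3, No279 for Apoa4 and No244 for Apoa5. For Apoa4 and Apoa5 this order is imprecise, with 3 to 22 and 12 to 14 counts outside No364. In all, 13 of the 57 genes overlap a gene on the opposite strand.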

How the data were processed

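The authors deposited 1 table of raw read counts per Ensembl gene for 6 tumors. Per the labels, total RNA was made into TruSeq stranded mRNA libraries, and the submitters' processing notes name bcl2fastq 1.8.4, HISAT2 2.0.2, Subread 2.0.0 with featureCounts, and GRCm38. How the counting treated strand and reads with several places in the genome is not given in the sources used here. Symbols were matched for 37607 of 39179 IDs, and 142 of 143 symbols of the further lists. Klkb1 was not analysed here.

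The counts were fitted in R 4.3.3 with edgeR 4.0.16 (TMM, filterByExpr, quasi-likelihood test, Benjamini-Hochberg adjusted p, threshold 0.05), with genotype as the single factor, on 6 tumors and without No364. Alternatives were DESeq2 1.42.0, the study's own tool, and limma-voom (limma 3.58.1), other scalings and filters, No316 and No368 summed, and leaving out each tumor. The code was tested on simulated counts. The labels give each tumor its own number. Whether No316 and No368 are samples of 1 tumor was not tested, and p-values measure the spread between these samples, with both kept apart in the tests. CPM per kilobase used the joined exons of all GENCODE M21 transcripts, which lowers genes with long annotated exons, such as Cp and Serpinc1. Library totals are the depth, so a value of a few reads is imprecise.

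The 57 genes and the further lists (companion carriers, lipoprotein, coagulation, inhibitor, complement and acute phase genes, and hepatocyte, Kupffer, liver endothelial, cholangiocyte, intestinal and osteoblast markers) were chosen with earlier results of these data known. Genes were given in every tumor if they were among the 3 highest per kilobase in No364 of their class, among the 2 with the highest level outside No364 relative to it, a chain of a protein of several chains, or under the low-count filter. Of the further lists, the gene highest outside No364 was named, except for the complement list, where it is not reported here. Others were named after their values were seen.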

Additional observations from a re-analysis of the deposited data

How the results depend on the processing

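All 57 genes remained highest in No364 with DESeq2 size factors, with library size alone and with library totals that leave out mitochondrial genes. Leaving out another tumor cannot change this count. No gene of the group was called under any alternative except C3, the 1 gene called by DESeq2 with 6 tumors. The median log2 fold change with 6 tumors was 3.41 with limma-voom, and 0.44 to 8.95 on leaving out each tumor, the lowest without No364. Without No364 it was -0.36 to 0.92 on leaving out a further tumor, the lowest without No203. There, library size alone gave a median of 0.74 over the 47 genes, with 39 above 0, and moved the median of all genes from 0.04 to 0.19. No316 and No368 summed gave a median of 0.23. The median of the highest other tumor as a percent of No364 was 0.308% both with library size alone and without mitochondrial genes. The share of reads in No364 was 18.4% without mitochondrial genes in the total, 11.9% without Alb and 15.1% without genes that have a near-identical copy. No paired analysis was possible because the genotypes share no replicate numbers. The genotype difference rests on 1 tumor and has no replicate among the Cd44-/- tumors. For the 10 genes under the low-count filter, levels outside No364 are limited by counting error.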
